A study of Mus musculus with 18 samples.

Results

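The 9 genes described here, of nitrogen disposal and amino acid breakdown, were followed through RNA sequencing of female mice homozygous or heterozygous for a deletion of Xist, the noncoding RNA that silences an X chromosome. They were taken by gene symbol from each of 4 deposited tables, which gave 9 of 46078 gene rows, and all 9 were found in every table. Homozygous mice are called mutants and heterozygous mice controls, so by the sample labels every library, controls included, came from a carrier of the deleted allele. The deposited tables name the control columns WT, which conflicts with the heterozygous genotype of the labels, and the labels were followed. Mutant and control libraries numbered 2 and 2 in liver, spleen and brain of postnatal day 1, and 3 and 3 in primary tail-tip fibroblasts, for 18 libraries in 8 groups. Strain, the way the deletion was made and any pooling of animals were not given in sources used here. The series' design text names heart where the sample labels name brain, and the labels were followed; neuron markers summed to a signal of 6006 and 6161 in mutant and 5975 to 6999 in control libraries of that tissue.

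Each library had 12.4 M to 29.2 M reads in genes, and a level is a signal, the scaled count per gene that the authors deposited. The limit that a count of 0 allows is 3 reads, or a signal of 0.103 to 0.225 by library, for counting error only. In liver, Xist itself had a signal of 178 and 257 in mutants, against 594 and 730 in controls. It had 117 and 51.2 in mutant spleen, against 1205 and 1121 in control spleen, and 3.62 and 4.15 in mutant brain, against 666 and 683 in control brain. In fibroblasts it had 11.0, 13.5 and 2.33 in mutants, against 141, 98.2 and 70.5 in controls, so every mutant library was below its controls, and liver kept the most Xist signal. Each comparison of organs set 2 against 2 libraries, for which the smallest exact permutation p is 0.333, and 3 against 3 in fibroblasts allow 0.1. The p-values below come from fits across all genes, with limma on log2(signal + 0.5) and Benjamini-Hochberg adjustment, beside DESeq2 and edgeR on the whole reads recovered from the signal.

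The urea cycle turns the ammonia set free by amino acid breakdown into urea, and in mammals the full cycle runs in liver, chiefly in the hepatocytes around the portal vein. Its opening steps lie in the mitochondrion and the rest in the cytosol. Hepatocytes at the central vein instead trap remaining ammonia as glutamine. Around birth, glucagon, glucocorticoids and the C/EBP factors are known to raise many enzymes of amino acid breakdown in rodent liver.

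Cps1, carbamoyl phosphate synthetase, makes the first intermediate of the cycle from ammonia and lies on chromosome 1 at 67123026 to 67231259, plus strand (GRCm38, as are all positions here). Nags, on chromosome 11 at 102145513 to 102149477, plus strand, makes N-acetylglutamate, the activator that Cps1 requires. Otc, ornithine transcarbamylase, joins carbamoyl phosphate to ornithine and is the X-linked member, at X 10252305 to 10321024, plus strand. Ass1, on chromosome 2 at 31470207 to 31520672, plus strand, condenses citrulline with aspartate. Asl, on chromosome 5 at 130011258 to 130029247, minus strand, splits the product into arginine and fumarate. Arg1, on chromosome 10 at 24915221 to 24927484, minus strand, releases urea from arginine. Tdo2, on chromosome 3 at 81957090 to 81976202, minus strand, opens the tryptophan ring. Hpd, on chromosome 5 at 123171807 to 123182727, minus strand, acts in tyrosine breakdown. Glul, glutamine synthetase, lies on chromosome 1 at 153899944 to 153909723, plus strand. All 9 are protein-coding genes of the GENCODE mouse release M21 annotation.

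Of the 9, 3 share sequence with other annotated genes, which bears on their counts. Of all 50-base windows in Ass1 transcripts, the length of a read, 38.6% also occur in Gm5424, a processed pseudogene on chromosome 10. Of Glul windows, 12.6% occur in other genes, chiefly the processed pseudogene Glns-ps1. Of Nags windows, 13.5% lie in exons that overlap the antisense gene Gm11586, and the strand setting of the counting was not given. Cps1, Otc, Asl, Arg1, Tdo2 and Hpd shared no window with any other annotated transcript. The values of Gm5424 stand beside those of Ass1 below, since in the organs it held more reads than Ass1 did.

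RefSeq promoter sequences, 250 bases before to 50 bases after the annotated start (GRCm38.p6), were at hand for 6 of the 9 genes; Cps1, Asl and Arg1 had none in the table used. Of these, 3 are shown because they contrast the X-linked gene that was lower in mutant liver with members that were higher, 1 of them also outside the liver. Capitals mark matches, on either strand, to a CCAAT box (CCAAT) or a GC box (GGGCGG).
Otc, chrX:10252055-10252354, plus strand: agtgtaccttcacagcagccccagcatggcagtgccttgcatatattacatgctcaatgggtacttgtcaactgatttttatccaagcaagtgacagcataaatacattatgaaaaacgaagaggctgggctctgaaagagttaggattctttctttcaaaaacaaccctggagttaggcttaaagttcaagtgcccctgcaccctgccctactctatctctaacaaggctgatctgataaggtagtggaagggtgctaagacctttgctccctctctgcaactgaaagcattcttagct
Ass1, chr2:31470020-31470319, plus strand: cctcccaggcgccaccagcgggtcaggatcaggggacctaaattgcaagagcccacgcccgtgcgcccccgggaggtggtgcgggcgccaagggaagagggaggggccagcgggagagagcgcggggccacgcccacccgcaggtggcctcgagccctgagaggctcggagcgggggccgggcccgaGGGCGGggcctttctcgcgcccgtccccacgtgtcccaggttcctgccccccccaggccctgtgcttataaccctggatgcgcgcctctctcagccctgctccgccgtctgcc
Glul, chr1:153899679-153899978, plus strand: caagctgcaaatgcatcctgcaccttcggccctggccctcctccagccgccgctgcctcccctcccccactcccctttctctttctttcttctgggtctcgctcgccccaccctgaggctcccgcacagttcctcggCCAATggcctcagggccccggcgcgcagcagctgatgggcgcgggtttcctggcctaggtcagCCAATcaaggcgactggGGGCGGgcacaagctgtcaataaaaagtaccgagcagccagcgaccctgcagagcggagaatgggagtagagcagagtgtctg

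The Otc window was 44.3% G and C with 1 CpG, the Ass1 window 74.0% with 27 CpG, and the Glul window 64.3% with 17 CpG. Over the 32817 mouse promoter windows of the same table the median was 52.7% with 7 CpG. A GC box occurred in Ass1, Nags, Hpd and Glul, 4 of 6 windows, and in 35.6% of all windows. CCAAT occurred in Tdo2 and Glul, and in 37.4% of all windows. The TATA box letters TATAAA occurred in Tdo2, 229 bases before the start, and in 13.6% of all windows. The cAMP response half-site TGACG occurred in Nags, at position 32 after the start, and in 20.8% of all windows. The glucocorticoid receptor half-site TGTTCT, in 19.0% of all windows, and the C/EBP-like word TTGCNNAA (N, any base), in 10.8%, occurred in none of the 6. Matches to GGGCGG and TGACG can overlap other G- and C-rich words, and no match says only that these letters are not in this window.

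In newborn liver, Ass1, Asl, Cps1, Arg1 and Glul were higher in both mutant libraries than in both controls, and Otc was lower in both mutants. Ass1 averaged 2.14 times and Asl 2.08 times the control level, Cps1 1.61 times, and Arg1 and Glul each 1.47 times. Otc was 2.31-fold lower. None of the 9 passed the adjusted threshold of 0.05 in limma, which called 0 of 15075 genes (0%), nor in edgeR, which also called 0%, nor in DESeq2, which called 211 genes or 1.4%. At an unadjusted limma p under 0.05, 3 of the 9 passed, Otc, Ass1 and Asl, where 1006 of all genes or 6.67% did (edgeR, 1038 genes or 6.89%). Ass1 did not pass when summed with its pseudogene, which leaves 2 of the 9. Every mutant lay above every control for 5 of 9, against 23.5% of all genes, and below for 1 of 9, against 13.1%. The log2 fold change was above 0 for 8 of 9, against 55.9% of all genes, and its median was 0.59 over the 9 and 0.05 over all genes.

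Cps1, the most abundant of the 9 per kb of exon, had a signal of 7172 and 12567 in mutants, against 5569 and 6723 in controls. Its log2 fold change was 0.63 ± 0.51 (SE, limma, adjusted p = 0.882), and the second mutant library stood apart from the other 3. Without that library the log2 fold change was 0.23.

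Otc had a signal of 16.2 and 32.1 in mutants, against 42.0 and 69.7 in controls. Both mutants were lower than both controls, and within each genotype the library numbered 2 was the higher. This was a log2 fold change of −1.23 ± 0.43 (SE; adjusted p = 0.731 by limma and 0.212 by DESeq2). In bulk tissue, fewer cells of a type and less RNA per cell cannot be told apart. Of the 503 X-linked genes tested in liver, Xist left out, 0 had a lower log2 fold change than Otc. Next came Gk, glycerol kinase, at −1.21 and P2ry4, a nucleotide receptor, at −1.15, while the median of the X-linked genes was 0.10. Over all 15075 genes tested, 1.17% lay lower than Otc. This rank describes the libraries from which the fold change comes and is no further test of it.

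**Figure D1:**
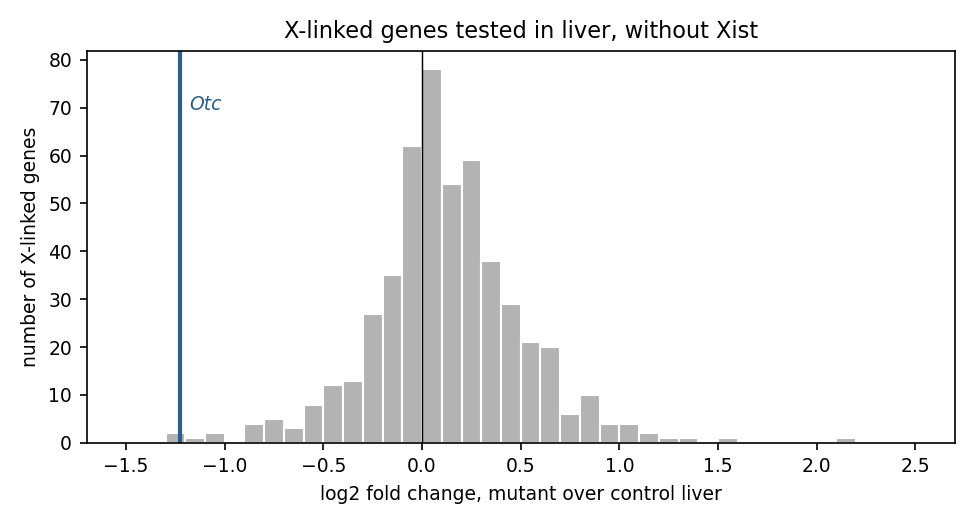
Log2 fold change of mutant over control liver for the 503 X-linked genes tested, Xist left out, as counts of genes per bin of 0.1. Otc, at −1.23, marks the low end of the distribution, whose median is 0.10.

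Ass1 had a signal of 279 and 399 in mutants, against 158 and 159 in controls. The log2 fold change was 1.07 ± 0.27 (SE; adjusted p = 0.618 by limma and 0.081 by DESeq2). The pseudogene Gm5424 had a far higher signal, 2149 and 3549.5 in mutants, against 1743 and 1838 in controls. Summed, the pair had 2427 and 3948 in mutants, against 1901 and 1997 in controls, again without overlap. The sum's log2 fold change was 0.67 ± 0.40 (SE; adjusted p = 0.841 by limma and 0.824 by DESeq2), against 1.07 for the Ass1 row. This sum was chosen after the values were seen.

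Asl, with no shared sequence, had a signal of 647 and 952 in mutants, against 353 and 418 in controls. Asl had a log2 fold change of 1.03 ± 0.31 (SE; adjusted p = 0.675 by limma and 0.127 by DESeq2), and both mutants stood clear of both controls. Arg1 had a signal of 1125 and 1543 in mutants, against 839.9 and 973 in controls, a log2 fold change of 0.54 ± 0.32 (SE, limma adjusted p = 0.84) that was 0.32 without the second mutant library. Nags had 45.4 and 86.3 in mutants, against 28.4 and 51.0 in controls. Its groups overlapped, and the libraries numbered 2 were the higher in each genotype.

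**Figure D2:**
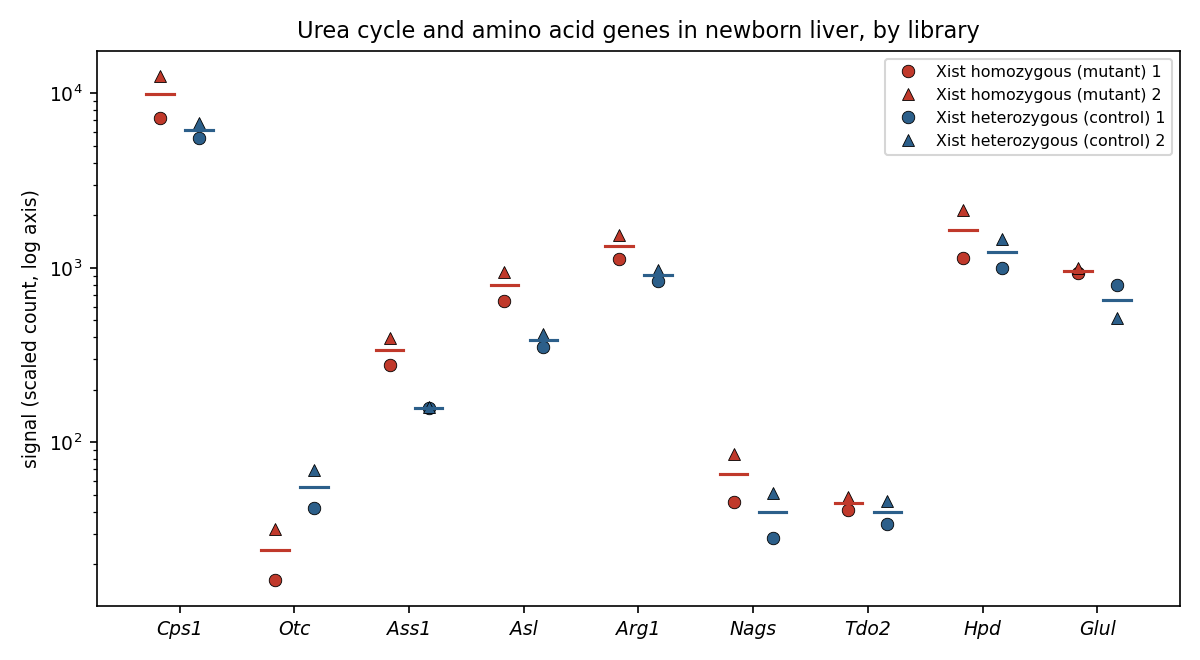
Signal of the 9 genes in each liver library on a log axis, mutants left of controls, with circles for libraries numbered 1, triangles for those numbered 2 and bars at the group means. The groups overlap for Nags, Tdo2 and Hpd; Otc alone has both mutants below both controls.

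Ratios of one gene to another within a library do not depend on how the library was scaled. Otc stood at 0.226% and 0.255% of the Cps1 signal in mutants, against 0.754% and 1.04% in controls. Otc stood at 2.50% and 3.37% of the Asl signal in mutants, against 11.9% and 16.7% in controls. Nags, whose product acts on Cps1 just upstream of Otc, stood at 2.81 and 2.69 times the Otc signal in mutants, against 0.676 and 0.732 times in controls. In each of these ratios the genotypes did not overlap and the spread within a genotype was smaller than the gap. By their own levels, Otc was lower and Cps1 and Asl were higher in both mutants. The lack of overlap of Otc to Cps1 and of Otc to Asl therefore had to follow and is no further test. Asl stood at 9.02% and 7.58% of Cps1 in mutants, against 6.33% and 6.22% in controls. Arg1 to Cps1 overlapped, at 15.7% and 12.3% in mutants and 15.1% and 14.5% in controls, as did Ass1 summed with Gm5424 to Cps1, at 33.8% and 31.4% in mutants and 34.1% and 29.7% in controls. Otc to Alb, the hepatocyte product albumin, also overlapped, at 0.0202% and 0.0654% in mutants and 0.0499% and 0.141% in controls.

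Glul had a liver signal of 936 and 994 in mutants, against 796 and 516 in controls. Its log2 fold change was 0.59 ± 0.33 (SE, limma adjusted p = 0.832), and here the controls spread more widely than the mutants. It was 0.28 without the second control library and 0.90 without the first. Summed with Glns-ps1 the log2 fold change was 0.58. Hpd had 1132 and 2142 in mutants, against 992 and 1471 in controls, and the groups overlapped. Its log2 fold change of 0.37 ± 0.45 (SE, limma) turned to −0.09 without the second mutant library. Tdo2 had 40.7 and 48.9 in mutants, against 33.9 and 45.9 in controls, also overlapping, and its log2 fold change of 0.18 ± 0.25 (SE, limma) turned to −0.04 without the first control library.

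Per kb of annotated exon, Cps1 had a signal of 1777 in mutant and 1106 in control liver, and ranked 33 and 51 among the 15075 genes tested. Hpd ranked 68 in mutants and 97 in controls, Arg1 87 and 123, Glul 153 and 235, and Asl 261 and 507. Nags ranked 1684 in mutants and 2699 in controls, and Tdo2 3432 and 3642. Otc moved the other way, ranking 6279 in mutants, at 5.69 per kb, and 2881 in controls, at 13.2 per kb. The 9 genes took 1.13% and 1.88% of all signal in mutant livers, against 0.879% and 1.06% in control livers, most of it from Cps1.

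Markers of liver cell types were read beside these values. The 9 hepatocyte markers summed to a signal of 109055 to 128665 in mutants and 119901 to 133812 in controls; no marker was at 0 and 7 of 9 overlapped. Ttr, transthyretin, at 1172 and 779 in mutants against 2451 and 1573 in controls, and Apoa2, at 1001 and 1373 in mutants against 1709 and 2123 in controls, were lower in both mutants. Relative to the mean log2 level of these markers the median of all genes moved to 0.33, and each of the 9 genes kept its sign, with Otc at −0.94. The 9 erythroid markers overlapped throughout, summing to 12674 to 29059.5 in mutants and 7636 to 22938 in controls, with the sum higher in the library numbered 1 of each genotype. Of 6 endothelial markers, 5 were higher in both mutants, where 23.5% of all genes were. The list summed to 778 to 793 in mutants and 562 to 631 in controls. Of 7 fibroblast markers, 6 were higher in both mutants, beside the same share of all genes. That list summed to 539 to 629.7 in mutants and 386 to 465 in controls. Of 6 stellate and mesenchymal markers, 3 were higher in both mutants, Dcn, Col1a1 and Col3a1, which the fibroblast list also holds. Lrat, of the same 6, was lower in both, at a log2 fold change of −0.87. Of 7 macrophage markers, 0 were higher and 1 was lower in both mutants, where 13.1% of all genes were lower. The part of these markers in the values of the 9 genes was not tested.

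Around the cycle, Slc7a2 and Got1 differed between genotypes by a larger fold than any of the 9. Of 11 tested genes of a support list, DESeq2 called 3 higher and 0 lower in mutant liver, where it called 0.955% of all genes higher and 0.444% lower; limma and edgeR called 0. The list's median log2 fold change was 0.11. Slc7a2, a carrier of arginine and other cationic amino acids, had 838 and 825 in mutants, against 148 and 278 in controls (log2 fold change 2.03, SE 0.37; adjusted p = 0.454 by limma and 0.000137 by DESeq2). Got1, which makes aspartate in the cytosol, had 2405 and 1584 in mutants, against 634 and 415 in controls (log2 fold change 1.93, SE 0.39; adjusted p = 0.515 by limma and 0.00234 by DESeq2). Slc25a15, the mitochondrial ornithine carrier, had 215 and 222 in mutants, against 80.4 and 114 in controls (log2 fold change 1.19, SE 0.26; adjusted p = 0.568 by limma and 0.0215 by DESeq2). Oat, ornithine aminotransferase, had 159 and 210.1 in mutants, against 64.9 and 103 in controls, and was called by none of the 3 tools. The ornithine carrier was thus higher in the libraries in which Otc, which uses mitochondrial ornithine, was lower.

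Outside the cycle, the largest fold differences among the genes listed were those of Sds and Tat. In phenylalanine and tyrosine breakdown, the pathway of Hpd, the median log2 fold change of the 7 genes tested was −0.08, and DESeq2 called 0 lower. Tat, tyrosine aminotransferase, had 5327 and 3289.8 in mutants, against 334 and 536 in controls (log2 fold change 3.31, SE 0.42; adjusted p = 0.333 by limma and 4.68e-12 by DESeq2). Pcbd1 and Qdpr, of tetrahydrobiopterin recycling, overlapped between genotypes, at log2 fold changes of −0.57 and −0.48. Hpd, the step after Tat, also overlapped.

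Of 7 tested genes of tryptophan breakdown, the pathway of Tdo2, DESeq2 called 0, and the median was −0.25. Acmsd had 11.4 and 21.9 in mutants, against 9.35 and 4.82 in controls, while Haao had 30.7 and 65.6 in mutants, against 76.3 and 91.5 in controls. Kynu and Kmo, 2 further steps, overlapped. Of 10 serine, glycine and threonine genes, 1 was called higher and 0 lower, with a median of −0.26. That gene was Sds, serine dehydratase, with 592 and 393 in mutants, against 43.1 and 36.1 in controls (log2 fold change 3.60, SE 0.29; adjusted p = 0.129 by limma and 1.54e-17 by DESeq2). Sdsl was also higher in both mutants, at 44.2 and 63.6 against 14.2 and 31.4 in controls, while Amt and Gcsh of the glycine cleavage system were lower in both, at log2 fold changes of −1.13 and −0.75.

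DESeq2 called 0 of 4 histidine, 0 of 6 methionine and cysteine, and 0 of 9 branched-chain and lysine genes, with medians of −0.10, 0.34 and 0.16. The histidine genes Uroc1, Amdhd1, Ftcd and Hal overlapped and were higher in the libraries numbered 2. Mat1a, which makes S-adenosylmethionine, had 5245 and 7115 in mutants, against 3388 and 4365 in controls, and Cdo1, cysteine dioxygenase, 709 and 614 in mutants, against 465 and 428 in controls. Bhmt, which remethylates homocysteine, had 265 and 411 in mutants, against 551 and 579 in controls, and shares 26.1% of its 50-base windows with other genes. Ahcy overlapped and shares 68.7%. Aass of lysine breakdown had 469 and 324 in mutants, against 226 and 249 in controls, and Bckdk was slightly lower in both mutants, at a log2 fold change of −0.17. Mccc2 and Bcat2 overlapped.

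**Figure D3:**
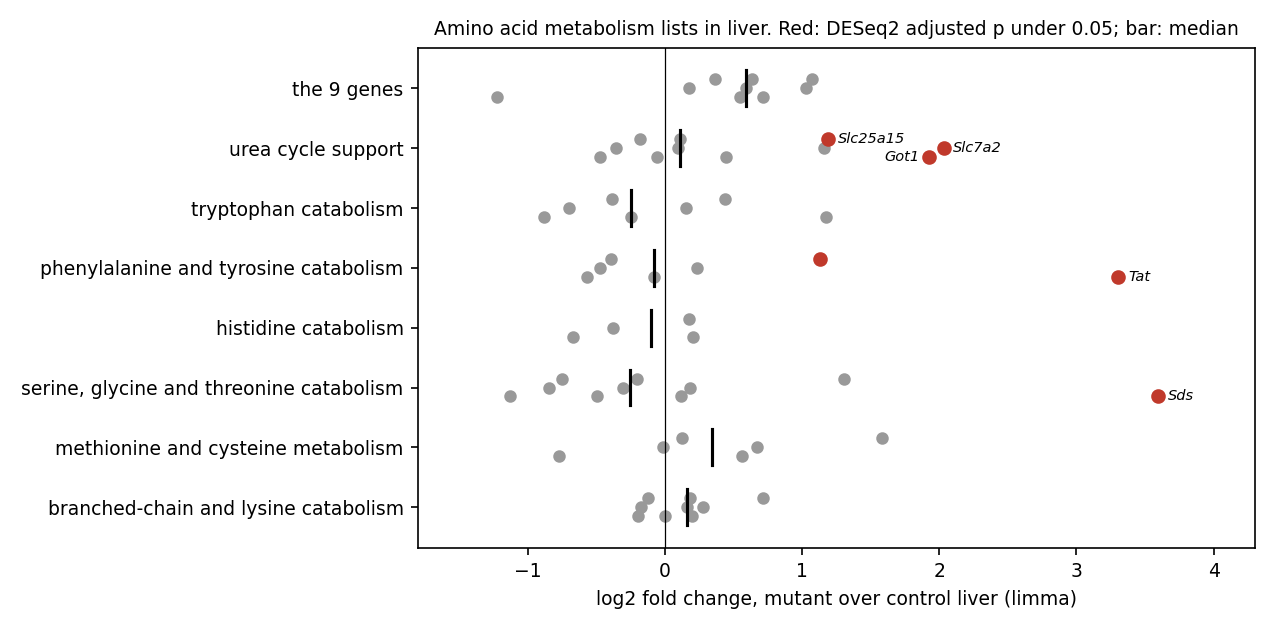
Log2 fold change of mutant over control liver for each tested gene of the 9 and of 7 other amino acid lists, points set apart vertically for legibility. Red marks genes with a DESeq2 adjusted p under 0.05, of which those described in the text are named, and black bars mark list medians, which run from −0.26 to 0.59.

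Regulators and zonation genes were read in the same livers. Of 10 regulators, DESeq2 called 2 higher and 0 lower, with a list median of 0.19. Ppargc1a, a coactivator of fasting genes, had 218 and 146 in mutants, against 27.4 and 44.3 in controls (log2 fold change 2.34, SE 0.35; adjusted p = 0.336 by limma and 4.72e-06 by DESeq2). Klf15, a factor known to drive amino acid breakdown in mouse liver, had 326 and 296 in mutants, against 60.3 and 138 in controls (log2 fold change 1.76, SE 0.43; adjusted p = 0.605 by limma and 0.0256 by DESeq2). Cebpb, at 157 and 125 in mutants against 53.9 and 87.1 in controls, and Hnf4a, at 939 and 1179 in mutants against 503 and 805 in controls, were higher in both mutants and called by none. Over the 10 regulators, 6 log2 fold changes were above 0. Below 0 were Sirt5, lower in both mutants at −0.66, and Cebpa, Gcgr and Foxa2, overlapping at −0.84, −0.83 and −1.06.

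All 10 genes of a glucocorticoid-induced list were higher in both mutants, where 23.5% of all genes were, with a median log2 fold change of 1.83. DESeq2 called 6 of them higher, where it called 0.955% of all genes higher. Pdk4 had 145 and 133 in mutants, against 28.4 and 34.7 in controls (log2 fold change 2.13, SE 0.22; adjusted p = 0.184 by limma and 5.76e-10 by DESeq2). Zbtb16 had 211 and 145 in mutants, against 20.03 and 28.9 in controls, Angptl4 272 and 298 in mutants, against 97.0 and 100.5 in controls, and Tsc22d3, itself X-linked, 112 and 55.0 in mutants, against 15.6 and 18.6 in controls. The list summed to 1370 to 1858 in mutants and 450.5 to 571 in controls, and it was not tested whether it and the 9 genes share a source of variation. In mutant spleen DESeq2 called 7 of its 10 genes higher, against 0.905% of all genes. It called 0 of 9 tested genes of the list in brain, with a median of 0.40, and 0 of 8 in fibroblasts, with a median of −0.02. In brain, 6 of the 9 were still higher in both mutants, where 13.8% of all genes were. Of the 9, limma passed 4 there at an unadjusted p under 0.05, where it passed 4.07% of all genes. In fibroblasts, 0 of the 8 were higher in all mutants, where 2.07% of all genes were.

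Of 8 periportal genes, the zone of the urea cycle, DESeq2 called 2 higher, Sds and Pck1, and the list median was 0.32. Pck1, of gluconeogenesis, had 4282 and 4216 in mutants, against 1396 and 2097 in controls (log2 fold change 1.31, SE 0.39; adjusted p = 0.675 by limma and 0.0114 by DESeq2). Cyp2f2 was lower in both mutants and Hsd17b13 overlapped. Of 10 pericentral genes tested, the zone of Glul, DESeq2 called 0 and the median was −0.94. Of them, 6 were lower in both mutants, where 13.1% of all genes were. The 11 genes of the list summed to 949 to 1801 in mutants and 1715 to 2032 in controls, which overlap. Axin2 had 3.43 and 6.76 in mutants, against 13.04 and 12.1 in controls, Rnf43 7.14 and 20.2 in mutants, against 38.8 and 37.5 in controls, and Rhbg 1.19 and 1.89 in mutants, against 4.64 and 3.18 in controls. Oat was the 1 pericentral gene higher in both mutants, and Glul was higher in both as well, unlike those 3 genes.

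Outside the liver, Glul had the highest signal of the 9 in spleen and brain, and Glul and Asl were tested in every tissue. In spleen it had 417 and 511 in mutants, against 291 and 253 in controls, and both mutants were higher (log2 fold change 0.76, SE 0.30; adjusted p = 0.779 by limma and 0.302 by DESeq2). Markers of other cell types were also higher in mutant spleen. Of fibroblast markers, 7 of 7 were higher in both mutants, where 18.3% of all genes were. They summed to 2902 to 4754 in mutants and 1765 to 2088 in controls. Also higher in both mutants were 5 of 6 endothelial and 5 of 6 stellate and mesenchymal markers. The stellate and mesenchymal list shares Dcn, Col1a1 and Col3a1 with the fibroblast list. Of 9 erythroid markers 0 had a log2 fold change above 0 there, and the part of these markers in the Glul values was not tested. In brain, where glutamine synthetase is an enzyme of astrocytes, Glul had 277 and 295 in mutants, against 238 and 249 in controls (0.23 ± 0.10, SE, limma adjusted p = 1). Astrocyte and radial glia markers summed to 1476 and 1493 in mutant brain, against 1392 and 1639 in control brain. Of these 9 markers, 3 had a log2 fold change above 0 in brain, where 46.1% of all genes did. In both mutant brains 0 were higher and 2 were lower, where 13.8% and 16.3% of all genes were. In fibroblasts Glul had 32.3, 53.1 and 46.9 in mutants, against 53.7, 52.7 and 50.7 in controls, and the groups overlapped. Glul was thus higher in every mutant than in every control of all 3 organs, though in none did it pass adjustment. Its response in liver minus that in brain was 0.36 ± 0.30 (SE, limma adjusted p = 0.977), and minus that in spleen −0.17 ± 0.43 (SE, limma adjusted p = 0.949).

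In spleen, 7 of the 9 genes passed the filter on low signal, all but Otc and Tdo2, and limma called 0 of 16578 genes (0%), edgeR 0% and DESeq2 174 or 1.05%, none of the 9 among them. At an unadjusted p under 0.05, limma passed 1 of the 7, Glul, and 1039 of all genes or 6.27%, and edgeR passed 1178 of all genes or 7.11%. Asl and Glul were higher in both mutants, 2 of 7, where 18.3% of all genes were, and 0 of 7 were lower in both, where 21.9% were. The log2 fold change was above 0 for 6 of 7, where it was for 43.5% of all genes. The filter averages mutants and controls together. The controls of Hpd alone average under it, so Hpd was counted only through its mutant levels. Asl had 20.7 and 22.9 in mutants, against 15.6 and 19.3 in controls. Cps1, Arg1, Nags, Hpd and Ass1 were higher in the library numbered 1 of each genotype. Cps1 had 24.1 and 2.25 in mutants, against 14.8 and 1.31 in controls, and Hpd 4.28 and 0.482 in mutants, against 1.79 and 0.0596 in controls. Hepatocyte markers moved with them, summing to 427 and 39.6 in mutants and 317 and 22.7 in controls, so the libraries numbered 1 were high in both genotypes. Pancreatic acinar markers split otherwise, at 11.9 and 7552 in mutants and 932 and 1.13 in controls. The part of these markers in the spleen values was not tested. Without the second mutant library limma called Cps1 (adjusted p = 0.0171) and Arg1 (adjusted p = 0.037) among 177 of 16578 genes. That fit sets 1 mutant library, the one high in hepatocyte markers, against 2 controls and assumes that it varies as the controls do.

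In brain, 3 of the 9 genes passed the filter, Cps1, Asl and Glul, and none was called, where limma called 4 of 16909 genes or 0.0237%, edgeR 4 and DESeq2 41 or 0.242%. Glul was the 1 of 3 with both mutants higher, where 13.8% of all genes were, and 0 of 3 were lower in both, where 16.3% were. The log2 fold change was above 0 for 2 of 3, where it was for 46.1% of all genes, and limma passed 1 of 3, Glul, at an unadjusted p under 0.05, where it passed 4.07% of all genes and edgeR 3.99%. Asl had 14.5 and 15.1 in mutants, against 14.5 and 16.0 in controls, and Cps1 1.03 and 1.20 in mutants, against 0.71 and 1.29 in controls, both overlapping. The controls of Cps1 alone average just under the filter, so Cps1 was counted only through its mutant levels. Otc had 0 reads in each of the 4 brain libraries, which allows a signal of up to 0.129 to 0.194. The response of Asl in liver minus that in brain was 1.08 ± 0.29 (SE, limma adjusted p = 0.566), in a fit that called 6 of 13451 genes or 0.0446% and passed 6.04% at an unadjusted p under 0.05. The liver response minus the spleen response was 0.71 ± 0.37 for Asl (SE, limma adjusted p = 0.871) and for Nags 1.60 ± 1.11 (SE, limma adjusted p = 0.871), in a fit that called 0.0139% of 14407 genes and passed 4.69% at an unadjusted p under 0.05. None of the 9 was called in either fit.

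In fibroblasts, Ass1, Asl and Glul passed the filter, and limma and edgeR called 0 of 13077 genes (0%) and DESeq2 3 or 0.0229%, none of them a member. At an unadjusted p under 0.05, limma passed 0 of the 3 and 127 of all genes or 0.971%, and edgeR passed 133 of all genes or 1.02%. None of the 3 was higher in all mutants or lower in all mutants, where 2.07% and 1.65% of all genes were. The log2 fold change was above 0 for 0 of 3, where it was for 48.9% of all genes. Ass1 had 82.2, 37.8 and 135 in mutants, against 91.0, 108 and 150.04 in controls, the second mutant library being the lowest. Asl had 13.3, 21.6 and 17.8 in mutants, against 22.0, 17.1 and 16.2 in controls. Otc, Tdo2 and Hpd had 0 reads in all 6 libraries, which allows a signal of up to 0.134 to 0.154 each.

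**Figure D4:**
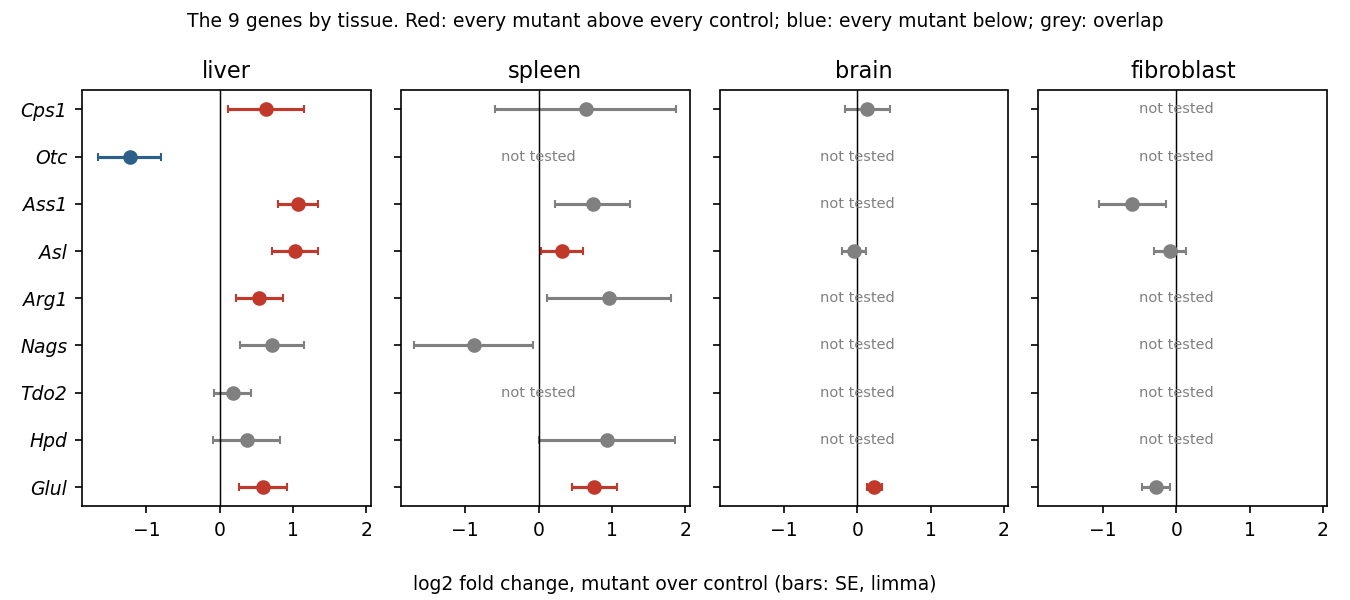
Log2 fold change of mutant over control with its SE (limma) for the 9 genes in each tissue; genes under the filter on low signal are marked as not tested. Red marks genes with every mutant above every control, blue every mutant below, grey overlap: 5 red and 1 blue in liver, 2 red in spleen, 1 red in brain and 0 in fibroblasts.

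Among control libraries alone, liver held the highest level of all 9 genes. The tables were normalized separately, so these levels are described and not tested. Glul averaged 656 ± 199 in liver, 272 ± 26.9 in spleen, 244 ± 7.77 in brain (SD, n = 2 each) and 52.4 ± 1.53 in fibroblasts (SD, n = 3); spleen and brain lay closest. Asl averaged 385 ± 46.2 in liver, then 18.4 ± 3.10 in fibroblasts, 17.5 ± 2.60 in spleen and 15.3 ± 1.03 in brain, and the last 3 did not differ beyond their spread. Cps1 averaged 6146 ± 816 in liver and 8.03 ± 9.50 in spleen, and 0.998 ± 0.407 in brain. Arg1 averaged 907 ± 94.3 in liver and Hpd 1232 ± 339 in liver, and in the other tissues neither averaged above 1.12. Nags averaged 39.7 ± 16.0 in liver and 6.84 ± 7.48 in spleen. Otc, at 55.8 ± 19.6 in liver, had no read in control spleen, brain or fibroblasts, and Tdo2, at 39.9 ± 8.46 in liver, averaged 0.146 in brain and 0 in spleen and fibroblasts.

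**Figure D5:**
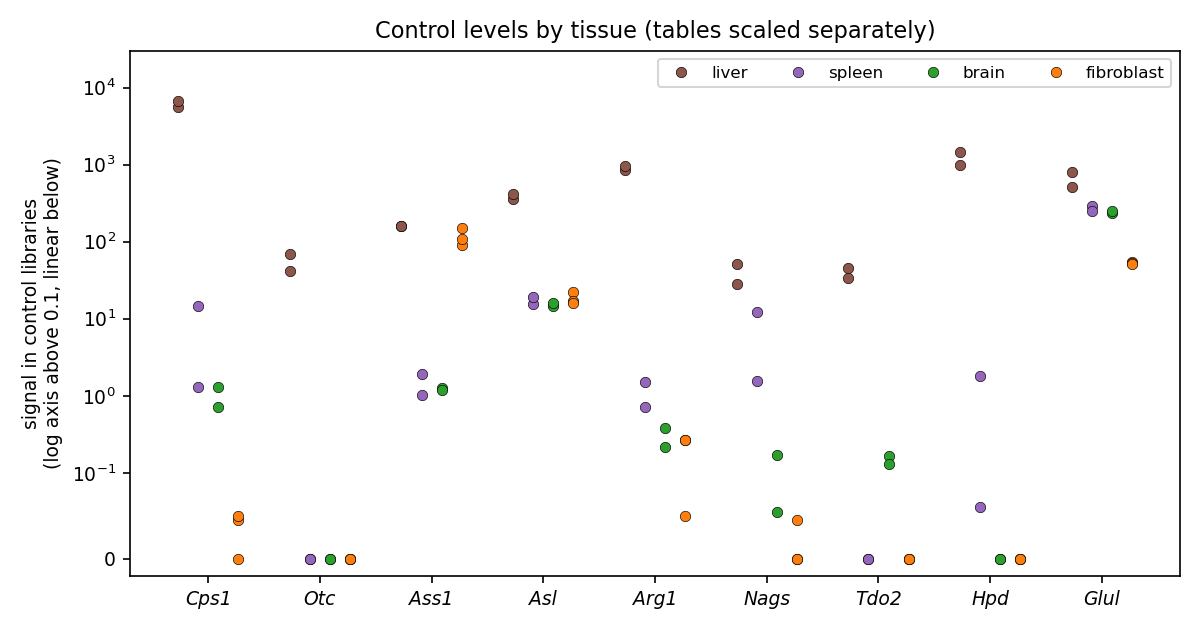
Signal of the 9 genes in each control library of liver, spleen, brain and fibroblasts, on an axis that is logarithmic above 0.1 and linear below. Liver lies highest for every gene; Glul is above 50 in all 4 tissues, and Ass1 in fibroblasts lies near its liver level.

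The levels of the Ass1 row stand beside a pseudogene whose share of the pair differed between tables. That row averaged 158 ± 0.915 in control liver (SD, n = 2) and 116 ± 30.5 in control fibroblasts (SD, n = 3), and 1.47 and 1.23 in spleen and brain. Gm5424 stood at 1106% and 1157% of Ass1 in control liver and at 836% to 870% in control brain, but at 15.5% to 17.3% in control fibroblasts. Summed, Ass1 and Gm5424 averaged 1949 ± 67.9 in liver, 135 ± 34.6 in fibroblasts, 13.2 ± 7.50 in spleen and 11.7 ± 0.67 in brain. The order of tissues was unchanged, but the gap between liver and fibroblasts was wider than in the Ass1 row. Glns-ps1 likewise stood at 6.38% to 8.15% of Glul in control organs and at most 0.0877% in control fibroblasts. The share of reads given to pseudogenes thus differed between the fibroblast table and the organ tables, and why was not tested.

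Across the 18 libraries, the genes with the most similar log2(signal + 0.5) were taken for each member among 19819 genes compared. For Cps1 these were Fgb (Pearson r = 0.998), Plg and Ahsg (0.997 each), and for Hpd they were Hrg, Apoa5 and Azgp1 (0.998 each). For Arg1 they were Hpd (0.997), Cyp3a11 (0.996) and Serpina1b (0.995), for Otc Gltpd2, Bhmt-ps1 and Slc17a2 (0.998 each), and for Tdo2 F9 (0.997), Pla2g12b and Ces1c (0.996 each). For Asl they were Defb1 (0.994), Vsig4 and Gm16573 (0.991 each), for Nags Mst1 (0.989), Dqx1 (0.987) and Gm4737 (0.981). For Ass1 they were Nipal1 (0.982), Qsox1 (0.976) and Farp2 (0.959), and for Glul C130074G19Rik (0.982) and Igf2 (0.973). The libraries fall into 4 tissues of which liver is highest for each member, so these values describe the contrast of tissues.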

How the data were processed

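The authors deposited 4 tables, 1 per tissue, of signal: read counts per gene that they scaled, each table by itself; the submitters' processing notes name HTSeq 0.6.1, edgeR (no version) and GRCm38, without their roles. The aligner, annotation and strand setting were not given in sources used here. Per the labels' protocols, total RNA was depleted of ribosomal RNA and read at 50 nt. In each column, 100% of nonzero signal values were whole multiples of the smallest at a tolerance of 0.05, from which whole reads were computed.

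Of 46078 rows, 45229 were matched to GENCODE mouse release M21. The 849 unmatched rows, at most 0.179% of reads in any library, stayed out. Genes averaging 1 or more over a table were fitted as log2(signal + 0.5) with limma 3.58.1 (trend, R 4.3.3) within each tissue, two-sided, and edgeR 4.0.16 (quasi-likelihood) and DESeq2 1.42.0 were run on recovered reads. Fold changes on the log2(signal + 0.5) scale understate those of low genes. Replicates are biological per the series' design text. The fits were tested on simulated data. For liver, limma and edgeR each recovered 1 of 100 genes changed 2-fold, and DESeq2 recovered 10. Of 100 genes changed 4-fold, limma recovered 37, edgeR 29 and DESeq2 80. False calls numbered 4 by limma, 2 by edgeR and 46 by DESeq2. A gene not called in liver may thus still differ 2-fold, and genes called by DESeq2 alone include false ones.

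The members, lists and rule for naming genes (all 9 members, up to 4 genes of each other list with the smallest liver p, and the 3 genes most correlated with each member) were chosen with earlier results of these data known. Of the genes this rule names, 2 are not reported here. Gk, P2ry4, Cebpa, Gcgr, Foxa2, Sirt5, Gm5424, Glns-ps1 and Gm11586 were named after their values were seen. Alternatives were another pseudocount, filter, scaling or tool, a replicate block, each library left out, and copies summed with Ass1 and Glul, the last added after seeing the data. Shared sequence was counted as 50-base windows of GENCODE transcripts, either strand.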

Additional observations from a re-analysis of the deposited data

Results flagged for a closer look

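For 2 of the 9 genes the mutants lay on opposite sides of the controls in 2 tissues; neither difference was tested, since the gene was under the filter on low signal in 1 of them. Otc was lower in both mutant livers, but mutant spleens held 8 and 1 reads of it, against 0 and 0 in control spleens; the log2 fold change in liver minus that in spleen was −1.87. Its size is set by the pseudocount of 0.5, since control spleens had no read, and the direction in spleen rests on 1 library, as 1 read lies within the 3 reads that a count of 0 allows. The hepatocyte markers summed to 427 and 39.6 in mutant spleens, against 317 and 22.7 in control spleens, so the first control library was nearly as high as the first mutant library and had no Otc read; their part was not tested. Ass1 was higher in both mutant livers and lower in both mutant brains, at a signal of 0.517 and 0.758 in mutant brain, against 1.26 and 1.20 in control brain, and the log2 fold change in liver minus that in brain was 1.69. Summed with Gm5424, the brain levels were 11.8 and 8.56 in mutants, against 12.2 and 11.2 in controls, which overlap. Liver minus brain was then 0.88 ± 0.35 (SE, limma adjusted p = 0.79).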

How the results depend on the processing

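Alternatives were another pseudocount, filter, scaling or tool, a replicate block and each library left out; summing Ass1 and Glul with their copies was added after seeing the data. In liver, Otc kept a negative and Ass1, Asl, Cps1, Arg1 and Glul a positive log2 fold change under every alternative run, and none of the 9 was called, the lowest adjusted p being 0.075 for Otc, 0.081 for Ass1 and 0.0898 for Asl. With each library left out, Cps1 ranged 0.23 to 1.04, Otc −1.71 to −0.74, Ass1 0.82 to 1.33, Asl 0.75 to 1.31, Arg1 0.32 to 0.77 and Glul 0.28 to 0.90. In spleen the count of members called ranged 0 to 2. Genes whose direction turned when a library was left out were, in liver, Tdo2 (−0.040 to 0.39), Hpd (−0.093 to 0.83), Kmo (−0.030 to 0.91), Ftcd (−0.50 to 0.85), Hal (−0.80 to 1.21), Ahcy (−0.069 to 3.23), Uroc1 (−1.48 to 0.13), Amdhd1 (−1.17 to 0.41), Bcat2 (−0.40 to 0.0044), Pcbd1 (−1.15 to 0.013) and Qdpr (−0.95 to 0.0010). In spleen they were Nags (−2.20 to 0.42), Cps1 (−0.93 to 2.23) and Hpd (−0.081 to 2.08), in brain Cps1 (−0.14 to 0.21) and Asl (−0.11 to 0.023), and in fibroblasts Asl (−0.24 to 0.10). Liver minus spleen turned for Glul (−0.49 to 0.14), Cps1 (−1.59 to 1.57), Ass1 (−0.20 to 0.87) and Hpd (−1.71 to 0.45), for Cps1 to 0.051 with a pseudocount of 1, and for Ass1 to −0.18 when summed with Gm5424. Relative to the hepatocyte markers, Bcat2 turned to 0.085 and Bckdk to 0.11, and 81.5% of all liver genes were above 0. The control liver level of Ass1 was 159 after rescaling, against 158, and 1948.5 summed with Gm5424. Over all genes limma called 0 in liver, but 11 without the filter, 60 with the replicate block and 211 by DESeq2; in spleen 0, 22, 356 and 174; in brain 4, 13, 4 and 41, with 6 to 109 when a library was left out. Without spleen mutant 1 or 2, 170 and 177 genes were called. With the block, 0 of the 9 were called in any tissue. The labels give only numbers: deviations of same-numbered libraries correlated at 0.585 in liver, 0.0783 in brain and −0.0257 in spleen, and at −0.0800, 0.432 and 0.0231 in fibroblasts, where mutant 1 correlated best with control 3. The causes of these shifts were not tested. Otc and Tdo2 in spleen rest on 8 reads or fewer a library.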
